A study of Homo sapiens with 9 samples.

Results

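The 8 S100 genes described here are S100A4, S100A6, S100A8, S100A9, S100A11, S100A12, S100A13 and S100P. They were taken by gene name from the 36119 loci of the knockout table and the 35856 loci of the treatment table, and each was found once in both tables. RNA was sequenced from NB4 cells, a human acute promyelocytic leukaemia line with the PML-RARA fusion, which responds to retinoic acid (RA) by granulocytic maturation. The treatment set held 5 libraries, 1 for each condition: the vehicle DMSO, MC_2580 (an inhibitor of the histone demethylase LSD1, encoded by KDM1A), RA at 0.01 uM, RA at 1 uM, and a combination of MC_2580 and the lower RA dose, all for 24 h. The knockout set held 4 libraries of untreated cells, 2 of LSD1 KO and 2 of WT genotype, with no time given. The labels do not say how the knockout was made, at what dose MC_2580 was used, or whether the libraries of a genotype were grown separately, so a p-value reflects no more than how much these libraries vary. Both knockout columns carry the same name, KO2, in the table's header, which may be 1 clone.

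S100 proteins are small calcium-binding proteins with paired EF-hand motifs that work mostly as dimers. S100A8 and S100A9 form calprotectin, a main cytosolic protein of neutrophils and monocytes that withholds zinc and manganese from microbes and, once released, acts on Toll-like receptor 4 and the receptor RAGE. S100A12 is a related granulocyte protein that binds zinc and copper. The other members bind targets inside the cell: S100A4 binds non-muscle myosin, S100A6 binds the calcyclin-binding protein CACYBP and annexins, S100A11 binds annexins, S100A13 takes part in the export of FGF1 and IL1A, and S100P binds ezrin.

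All values are FPKM, fragments scaled to transcript length and library size, so levels of different genes can be set side by side. The tables number their loci separately and were normalized separately, so levels were compared only within a table. The numbers of reads are not given. From the spacing of low values, the reads behind 1 FPKM were 1.04 to 1.66 times those of WT library 1 in the other knockout-set libraries, and 0.731 to 0.896 times those of the DMSO library in the other treatment libraries. KDM1A, listed under its older symbol AOF2, had 14 and 16.8 FPKM in KO cells and 49.8 and 66.6 FPKM in WT cells. It was lower in both KO libraries, with a log2 difference of -1.84 (SE 0.23, limma adjusted p = 0.158 over all loci), and the submitters' own test of it failed in the second pair. The tissue label was checked against markers: 5 of 6 promyelocyte genes, MPO among them, were at 1 FPKM or more in every library. ELANE, the other promyelocyte gene, was at most 0.242 FPKM. Erythroid and fibroblast markers were at or near 0 (at most 1.82 FPKM summed), while some eosinophil, lymphocyte and epithelial markers were not, as given below. In bulk RNA, fewer cells of a type and less RNA per cell cannot be told apart.

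The locus spans in the tables, whose build is hg18 per the submitters' processing notes, put 7 of the 8 genes in the S100 cluster of chromosome 1. S100A11 lies apart at chr1:150271606-150276135. S100A9 (chr1:151596954-151600126), S100A12 (chr1:151612805-151614699) and S100A8 (chr1:151629132-151630173) follow each other, and S100A6 (chr1:151773699-151775344), S100A4 (chr1:151782713-151789236) and S100A13 (chr1:151857899-151885402) lie beyond them. S100P is alone on chromosome 4 (chr4:6746467-6749798). The S100A4 span is shared with the locus of S100A3, and that of S100A13 with S100A1 and another locus. Whether the counting used strand is not given in the sources used here, so reads of genes that share a span may not be fully separated.

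The sequences just before the starts of S100A8, S100A12 and S100A9 are shown because these 3 neighbours were the members whose RNA differed most between libraries. They come from RefSeq on GRCh38.p14, 5′ to 3′ on the gene's own strand, and no base of an exon that GENCODE annotates for the gene is included. S100A8 is at chr1:153391189-153391438 (minus strand, before the most upstream of its 3 RefSeq starts), S100A12 at chr1:153375650-153375871 (minus strand, leaving out the last 28 bases before its RefSeq start) and S100A9 at chr1:153357604-153357853 (plus strand). Capitals mark matches, on either strand, to 6 short motifs. Sites of C/EBP factors were searched as TTNNGNAA, sites of the ETS factor PU.1 as GAGGAA, the half-site of retinoid receptors as AGGTCA, sites of the repressor GFI1 as AAATCA, sites of the AP-1 dimers as TGANTCA, and the core promoter box that binds TBP as TATAAA.
S100A8: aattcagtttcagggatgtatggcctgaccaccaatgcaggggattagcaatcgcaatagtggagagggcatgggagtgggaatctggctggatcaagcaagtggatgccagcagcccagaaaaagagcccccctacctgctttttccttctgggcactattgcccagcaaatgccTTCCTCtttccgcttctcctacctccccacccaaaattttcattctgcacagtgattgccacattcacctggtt
S100A12: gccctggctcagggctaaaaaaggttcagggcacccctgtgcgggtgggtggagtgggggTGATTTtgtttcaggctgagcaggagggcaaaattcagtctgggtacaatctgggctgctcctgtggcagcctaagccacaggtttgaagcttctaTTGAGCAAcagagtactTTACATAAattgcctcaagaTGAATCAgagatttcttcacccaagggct
S100A9: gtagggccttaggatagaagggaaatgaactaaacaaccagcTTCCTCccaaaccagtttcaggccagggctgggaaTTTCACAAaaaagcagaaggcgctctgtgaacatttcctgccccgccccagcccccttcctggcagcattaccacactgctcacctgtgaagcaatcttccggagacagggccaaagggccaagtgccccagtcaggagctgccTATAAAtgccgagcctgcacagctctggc
No matches in these stretches share bases. Over the 250 bases before every RefSeq start of the 8 genes, GAGGAA was found in S100A8 and S100A9 and in no other member. At 2 of 8 genes this is near the share of RefSeq promoters with it, 23.6% of 35116. TATAAA was found in 6 of the 8 genes, against 10.7% of promoters. It lay 28 to 31 bases before a start of S100A4, S100A8, S100A9, S100A13 and S100P. For S100A8 that was start 2, which is not the start shown above. In S100A12 it lay 8 bases before the start, among the bases left out above. A gene counts here if any of its starts has a match, and S100A8 and S100A13 have 3 starts each. The shares of promoters count each start by itself, so the 2 measures are not quite alike. S100A12 held the only member match to TGANTCA, as TGAATCA at 57 bases before its start (6.57% of promoters), and to AAATCA (11.6%). AGGTCA was found in S100A4 alone (12.1% of promoters), and TTNNGNAA, present in 33.2% of promoters, in 7 of the 8 genes. The TTNNGNAA matches of S100A8 belong to starts 2 and 3, outside the stretch shown. For AAATCA and AGGTCA, 1 of 8 genes is near the share of promoters. A match is a description of these letters, not a binding site.

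In the DMSO library the family was led by S100A4 at 305 FPKM and S100A11 at 218 FPKM, while calprotectin RNA was close to absent. S100A9 was among the leading members in each library given RA, while S100A8 lay behind S100A4, S100A9, S100P and S100A11 with RA alone and behind S100A9 only with the combination. With the combination S100A9 was at 885 FPKM, rank 57 of 17006 protein-coding genes, from rank 8692 of 16995 in DMSO. S100P was also higher in every library given RA, S100A12 was above 1 FPKM in the combination library alone among the 5, and S100A4, S100A6, S100A11 and S100A13 stayed within 2-fold of DMSO. Each condition is 1 library, so replicate error is unknown here and no p-value is given. A gene was counted as higher or lower where FPKM + 1 differed at least 2-fold and FPKM reached 1 in either library. S100A8 and S100A12 were under 1 FPKM in DMSO and entered the comparisons with DMSO only through the treated library, so the counts below are a description.

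**Figure D1:**
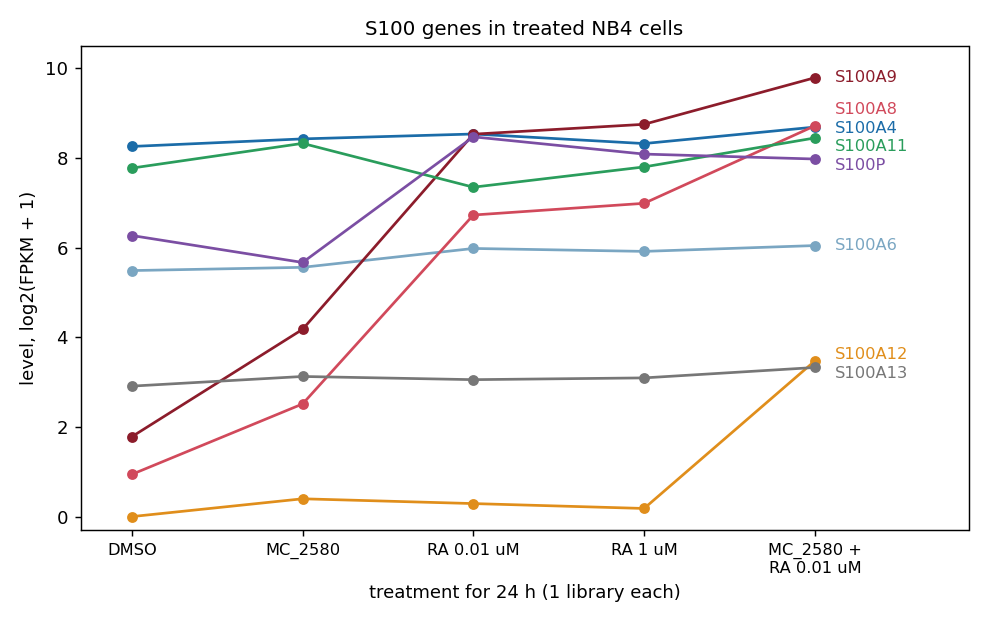
Level of each of the 8 S100 genes, as log2(FPKM + 1), in the 5 treatment libraries. Each point is 1 library and lines join the points of a gene. S100A9 and S100A8 climb from 2.44 and 0.921 FPKM in DMSO to 885 and 420 FPKM in the combination, S100A12 leaves the floor in the combination alone, and S100A4 stays between 305 and 412 FPKM.

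S100A9, the larger and phosphorylated partner of calprotectin, was at 2.44 FPKM in DMSO, 17.1 FPKM with MC_2580, 369 FPKM with RA at 0.01 uM, 430 FPKM with RA at 1 uM and 885 FPKM with the combination. The DMSO library was lowest, MC_2580 alone lay between it and the RA libraries, and the combination was highest. S100A8, its smaller partner, was at 0.921 FPKM in DMSO, 4.71 FPKM with MC_2580, 105 and 126 FPKM with the lower and the higher RA dose and 420 FPKM with the combination. The order of the libraries was that of S100A9.

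With MC_2580 alone, S100A9 was 7.02-fold and S100A8 5.11-fold the DMSO level, and these 2 were the members counted as higher of the 7 that reached 1 FPKM. By the same rule 2.22% of the loci tested were higher, and 0.741% of the protein-coding genes. S100A8 reached 1 FPKM through the MC_2580 library alone. Of the 6 members at 1 FPKM or more in DMSO itself, 1 was higher (S100A9), beside 0.951% of the loci at that level. On the log2(FPKM + 1) scale the differences were 2.40 for S100A9 and 1.57 for S100A8, places 4 and 17 among 9582 protein-coding genes. S100A11 was at 1.47-fold and S100P at 0.655-fold DMSO, both within 2-fold. S100A9 was called in this comparison in the authors' deposited table and S100A8 was not. The share of all loci called there was not taken, here or in the comparisons below, so the authors' calls are given as a description.

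RA at 0.01 uM gave 151-fold the DMSO level for S100A9 and 114-fold for S100A8, places 4 and 13 of 9703 protein-coding genes. S100P was at 4.65-fold, which made 3 of 7 members higher against 5.42% of all loci. RA at 1 uM gave 177-fold for S100A9, 137-fold for S100A8 and 3.55-fold for S100P, again 3 of 7 members against 6.63% of all loci. At each dose S100A8 reached 1 FPKM through the RA library alone. Of the 6 members at 1 FPKM or more in DMSO, 2 were higher at each dose (S100A9 and S100P), beside 3.43% of such loci at the lower dose and 4.28% at the higher. The authors' deposited table called S100A8, S100A9 and S100P at both doses. Between the doses no member differed 2-fold, where 3.61% of all loci did: at 1 uM S100A8 was 1.20-fold, S100A9 1.17-fold and S100P 0.765-fold its level at 0.01 uM.

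The combination gave 363-fold the DMSO level for S100A9 and 455-fold for S100A8, places 3 and 5 of 9892 protein-coding genes. S100P was at 3.29-fold, and S100A12, listed at 0 in DMSO, reached 10.1 FPKM, so 4 of 8 members were higher against 9.05% of all loci. Both S100A8 and S100A12 passed the 1 FPKM minimum through the combination library alone, and of the 6 members at 1 FPKM or more in DMSO 2 were higher, beside 6.10% of such loci. Here S100A8, S100A9 and S100P were called in the authors' deposited table. Against DMSO the median log2 difference of the 8 members was 1.19, beside -0.02 over all loci. That median includes S100A8 and S100A12, which entered through the combination library, so it is a description and not a shift of the family.

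**Figure D2:**
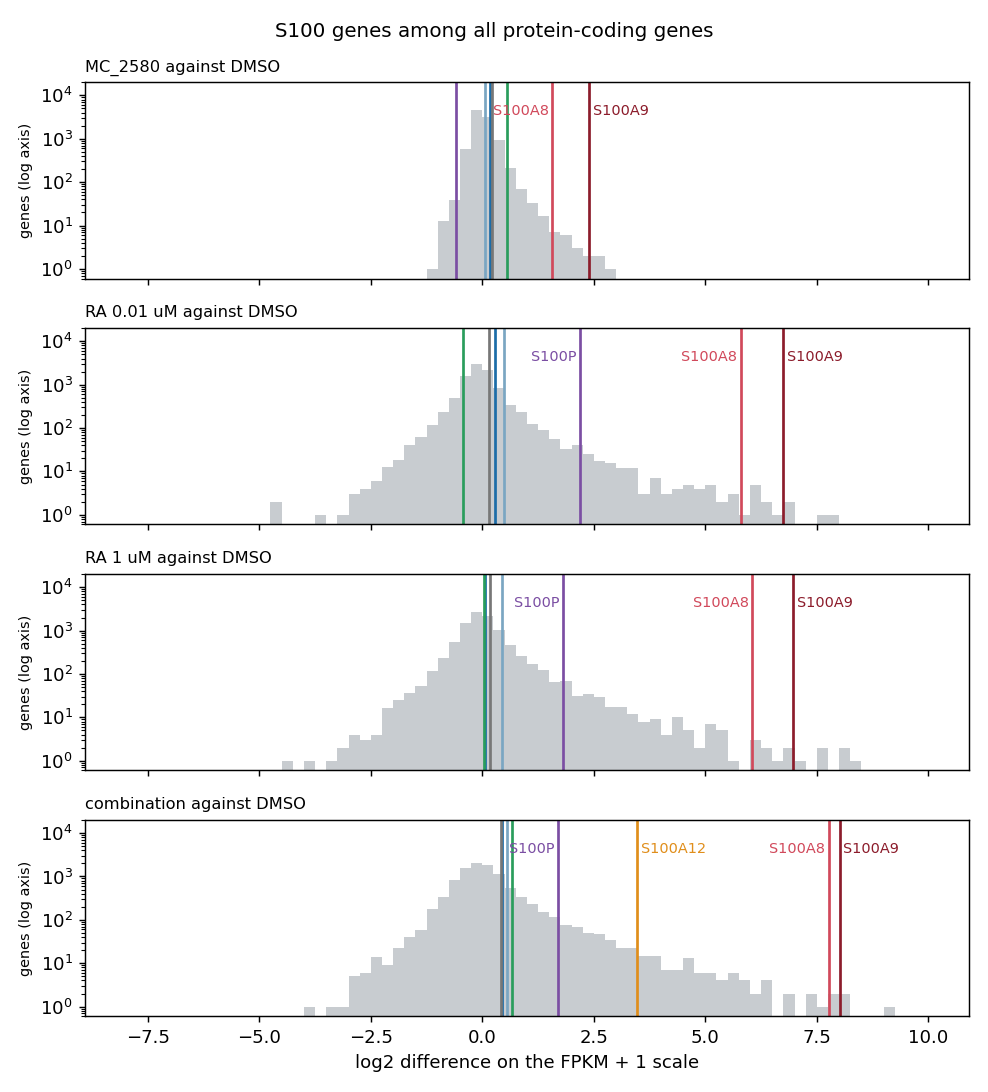
Number of protein-coding genes (log axis) by log2 difference from DMSO on the FPKM + 1 scale, for the 4 treatments, with the members that reached 1 FPKM as coloured lines, named where the difference was at least 0.9. S100A9 and S100A8 lie in the right tail of every panel, S100P joins them at 2.20, 1.82 and 1.70 with RA, and S100A12 at 3.47 in the combination panel.

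Adding MC_2580 to RA at 0.01 uM was read from the combination against the lower RA dose. S100A8 was at 3.99-fold, S100A9 at 2.40-fold and S100A11 at 2.15-fold. S100A12 was at 10.1 against 0.223 FPKM (log2 difference 3.18 on the FPKM + 1 scale), and passed the 1 FPKM minimum through the combination alone. With it 4 of 8 members were higher against 5.06% of all loci. S100P was at 0.708-fold and thus moved the other way within the 2-fold limit. Against RA at 1 uM, the combination had 3 members higher (4.07% of all loci): S100A8 at 3.33-fold, S100A9 at 2.06-fold and S100A12, again through the combination alone, with S100P at 0.925-fold. In both of these comparisons S100A8 and S100A12 were called in the authors' deposited table, and neither S100A9 nor S100A11 was. Against MC_2580 alone, 4 members were higher (7.80% of all loci), S100A8 at 89.0-fold, S100A9 at 51.8-fold, S100P at 5.02-fold and S100A12, likewise through the combination alone. No fold is given for S100A12 here, as it was at 0.317 FPKM or less in the other 4 libraries. These comparisons share the combination library.

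S100A12 was listed at 0 FPKM in DMSO and at 0.317, 0.223 and 0.134 FPKM with MC_2580, RA at 0.01 uM and RA at 1 uM. The combination library, at 10.1 FPKM, stood apart from the other 4. Its log2 difference from RA at 1 uM, 3.29, was place 12 of 9761 protein-coding genes. S100A12 was still well below S100A8 in the same library, where it ranked 6222 of 17006 genes by level.

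The combination was set against the sum of its parts, using MC_2580, RA at 0.01 uM and the combination each against the same DMSO library. On the log2 scale S100A12 exceeded the sum by 2.78, place 15 of 9841 protein-coding genes, and S100A11 by 0.55, while S100A9 fell short with a departure of -1.14, place 9821. The direction of S100A8 depended on the pseudocount: its departure was 0.41 on the FPKM + 1 scale and -0.24 with a pseudocount of 0.1 FPKM. Over all 9841 genes the median departure was 0.04 and the 1st and 99th percentiles were -0.784 and 1.58. S100P had a departure of 0.10 on the log2 scale. On the scale of FPKM itself the directions of S100A9 and S100P turned. For S100A9 the added amounts of both agents come to 384 FPKM and the library held 885 FPKM, 2.31 times as much. On that scale S100A8 was at 3.85 times and S100A12 at 18.7 times the sum, and S100P was below it at 0.765 times. S100A4, S100A6 and S100A13 were at 1.01, 1.01 and 1.06 times.

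**Figure D3:**
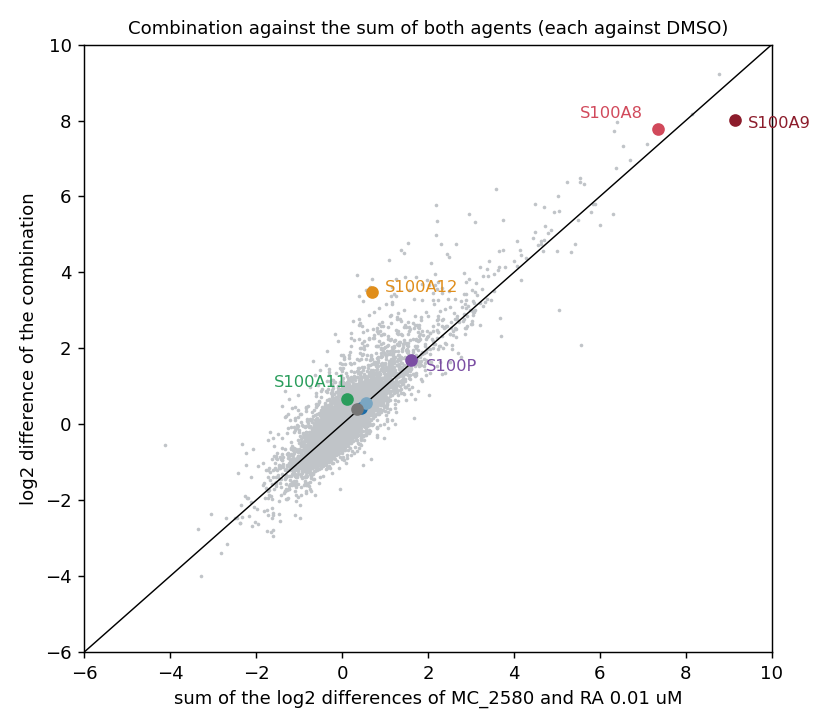
Log2 difference of the combination from DMSO (vertical) against the sum of the log2 differences of MC_2580 and RA 0.01 uM from DMSO (horizontal), on the FPKM + 1 scale, for 9841 protein-coding genes in grey and the 8 members in colour. The line marks equality, S100A12 lies 2.78 above it, S100A9 lies below it (departure -1.14) and S100A8 lies 0.41 above it, a direction that turns (-0.24) with a pseudocount of 0.1 FPKM.

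S100P, a member best known from placenta and epithelial cells that binds ezrin, was at 76.2 FPKM in DMSO, 49.9 FPKM with MC_2580, 354 FPKM with RA at 0.01 uM, 271 FPKM with RA at 1 uM and 251 FPKM with the combination. All 3 libraries given RA were above the other 2, the lower RA dose alone was highest, and the library with MC_2580 was the lower of each pair with and without it. S100A11 was at 218 FPKM in DMSO, 320 FPKM with MC_2580, 162 and 222 FPKM with RA at 0.01 and 1 uM, and 348 FPKM with the combination. The libraries given MC_2580 were the highest of the 5 and the lower RA dose the lowest. S100A4, tied to cell motility, ranged from 305 FPKM in DMSO to 412 FPKM in the combination, S100A6 from 43.9 to 65.1 FPKM and S100A13 from 6.52 to 9.03 FPKM over the same libraries. For these 3 genes DMSO was the lowest and the combination the highest library, with no difference of 2-fold.

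The makeup of the family's RNA shifted with these values. S100A8 and S100A9 together held 0.514% of the summed FPKM of the 8 members in DMSO, 2.76% with MC_2580, 33.1% and 38.8% with the lower and higher RA dose and 54.4% with the combination. The summed level went from 653 FPKM in DMSO to 2399 FPKM in the combination, and the share of S100A4 from 46.7% to 17.2%. The ratio of S100A9 to S100A8 was 2.64 in DMSO, between 3.41 and 3.63 with either agent alone and 2.11 with the combination, the lowest of the 5. At 0.921 FPKM in DMSO, the first of these ratios rests on a low level.

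In the knockout set, calprotectin RNA was again the part of the family that stood apart, at lower levels. S100A9 was at 39.9 and 55.9 FPKM in the KO libraries and 4.30 and 3.84 FPKM in the WT libraries. S100A8 was at 10.3 and 17.4 FPKM in the KO libraries and 0.630 and 1.23 FPKM in the WT libraries. For both genes each KO library was above each WT library by a wide margin. The means differed 11.8-fold for S100A9 (47.9 ± 11.3 against 4.07 ± 0.326 FPKM, SD, n = 2 each) and 14.9-fold for S100A8 (13.9 ± 5.03 against 0.932 ± 0.428 FPKM, SD, n = 2 each).

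**Figure D4:**
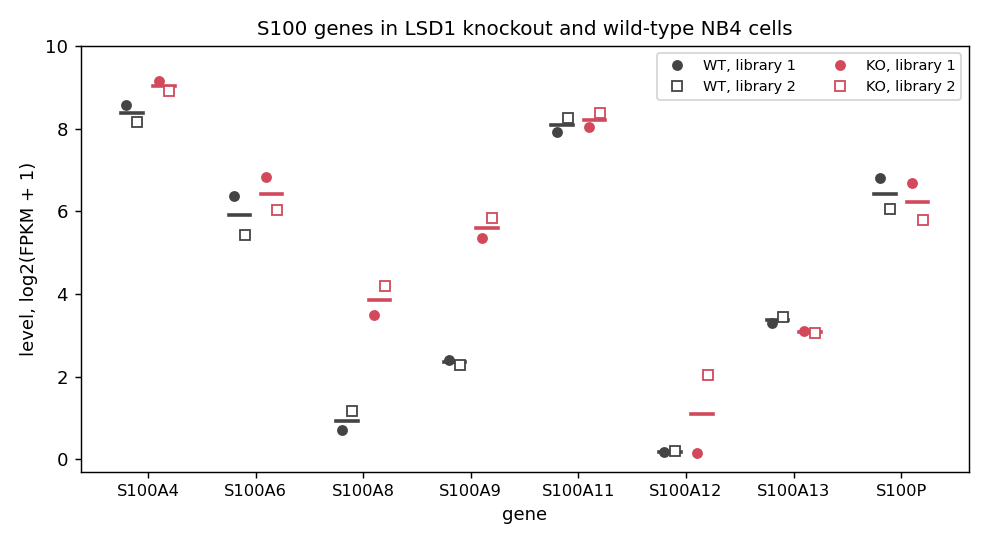
Level of each S100 gene, as log2(FPKM + 1), in the 2 WT libraries (grey) and the 2 LSD1 KO libraries (red), library 1 as a filled circle and library 2 as an open square, with a bar at the mean. S100A8 and S100A9 separate by genotype (log2 differences 2.92 and 3.25), the rise of S100A12 is in KO library 2 alone, and S100A6, S100A11 and S100P overlap between genotypes.

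Whether these differences passed a test depended on which loci were tested with them. With limma on log2(FPKM + 1) over all 13157 loci, S100A9 had a log2 difference of 3.25 (SE 0.23, adjusted p = 0.0658) and S100A8 of 2.92 (SE 0.34, adjusted p = 0.152), so 0 of 8 members were called where 0.114% of loci were. At an unadjusted p under 0.05 these 2 members passed, beside 7.16% of loci. Among the 9966 protein-coding genes with a single locus, limma called both, S100A9 at adjusted p = 0.0257 and S100A8 at adjusted p = 0.0448, 2 of 8 members against 0.592% of genes. They held places 5 and 13 in size among these genes. S100A8, like S100A12, reached a mean of 1 FPKM in KO only. In that scope both were also called without each library in turn, but so were more genes: 1.28% and 1.65% without KO library 1 and 2, and 3.08% and 2.59% without WT library 1 and 2. A genotype left with 1 library takes its spread from the other, so these calls do not show stability. Over all loci neither was called in such fits (adjusted p 0.161 to 0.284 for S100A9 and 0.302 to 0.489 for S100A8). In the authors' deposited table, which tested each pair of libraries alone, S100A9 was called in both pairs (q = 0.0277 and 0.0113) and no other member in either, S100A8 having q = 0.502 and 0.212.

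S100A4 was at 568 and 476 FPKM in the KO libraries and 382 and 284 FPKM in the WT libraries. The genotypes did not overlap, with a log2 difference of 0.66 (SE 0.26, limma adjusted p = 0.75 over all loci) that did not pass the test. S100A13 was lower in KO without overlap, at 7.62 and 7.23 against 8.78 and 9.94 FPKM, and did not pass either (log2 difference -0.30, SE 0.16, limma adjusted p = 0.83). With S100A8 and S100A9 this made 4 of 8 members whose genotypes did not overlap, where 34.0% of all loci had none. S100A6 (112 and 64.4 against 81.9 and 42.2 FPKM), S100A11 (264 and 330 against 242 and 304 FPKM) and S100P (101 and 53.9 against 110 and 65.3 FPKM) overlapped between genotypes.

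S100A12 was at 0.116 and 3.11 FPKM in the KO libraries and 0.121 and 0.146 FPKM in the WT libraries. KO library 2 alone was above the rest, and KO library 1 was at the WT level. At each library's own depth, the reads behind the values of KO library 1, KO library 2 and WT library 2 came to 1.0, 34.8 and 2.0 times those of WT library 1. The log2 difference of 0.92 (SE 0.74, limma adjusted p = 0.839) thus rests on 1 library. Without KO library 1 that library stands alone for KO, and the difference became 1.86, called among protein-coding genes (beside the 1.28% of genes given above) with a spread taken from WT only. That call adds nothing on S100A12 beyond the level in KO library 2.

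Differences between like libraries set the scale for these values. Between the WT libraries 0 of 7 members, and between the KO libraries 1 of 8 (S100A12), differed 2-fold, against 9.06% and 8.59% of all loci. S100A6 and S100P nearly did, at 1.94-fold and 1.69-fold between the WT libraries and 1.74-fold and 1.87-fold between the KO libraries, with library 1 higher in both genotypes. S100A11 was lower in library 1 of both genotypes, at 0.795-fold and 0.799-fold.

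Position in the cluster was set beside these differences. Between the outermost S100A loci of chromosome 1, a window of 1663 kb with 77 loci, 11 protein-coding genes reached 1 FPKM in a treatment library, 10 of them S100 genes and the other C1orf77. S100A9 and S100A8 were the genes of this window that were 2-fold higher with MC_2580 and with either RA dose, joined by S100A12 in the combination. S100A12 lies 15.9 kb and S100A8 32.2 kb from S100A9, and the next expressed member, S100A6, 177 kb. S100A5, next to S100A6, was at 0.113 FPKM in DMSO and 1.11 FPKM in the combination.

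**Figure D5:**
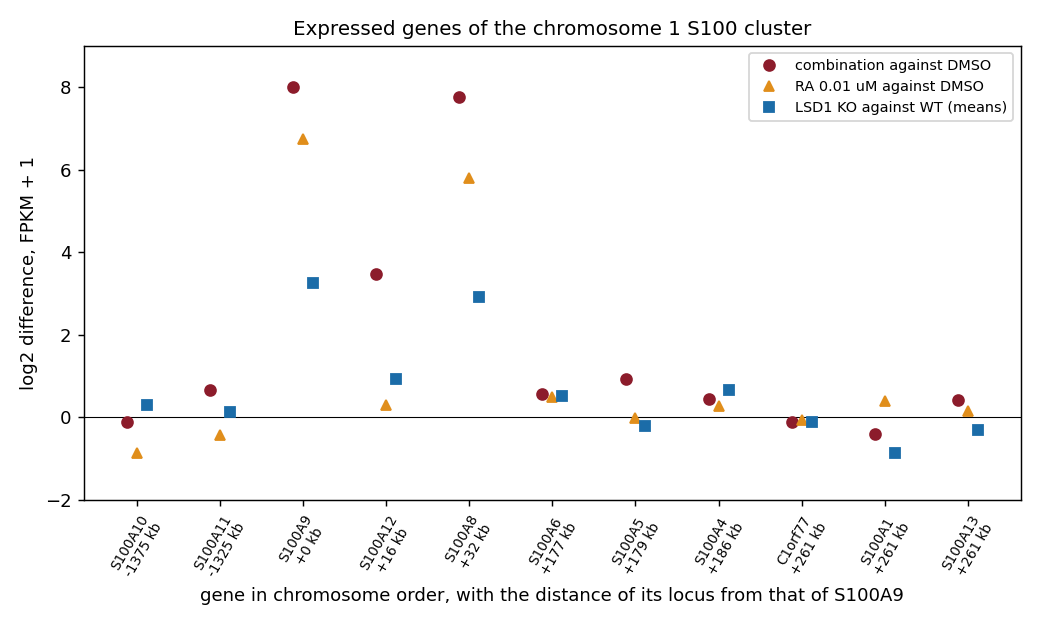
Log2 difference on the FPKM + 1 scale of the protein-coding genes of the chromosome 1 cluster that reached 1 FPKM in any of the 9 libraries, in chromosome order, with the distance of each locus from that of S100A9. Circles are the combination and triangles RA 0.01 uM, each against DMSO, and squares are the LSD1 KO against the WT mean. S100A9, S100A12 and S100A8, within 32.2 kb, hold the highest circles, and the other 8 genes lie between -1 and 1.

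Profiles most like each member's were found over 5 log2 differences, the 4 treatments against DMSO and KO against WT, among 9412 other protein-coding genes. Likeness is the root mean square difference between profiles, on the log2 scale. S100A8 and S100A9 had the same 3 nearest genes, at distances of 1.09 to 1.3 and 1.45 to 1.81: BPI, a bactericidal granule protein, ICAM1, an adhesion molecule, and ASB2, a RA-responsive ubiquitin ligase subunit. BPI, the nearest, was at 0.762 FPKM in DMSO, 1.23 FPKM with MC_2580, 114 and 188 FPKM with RA and 190 FPKM with the combination, and at 4.72 and 1.49 against 1.09 and 0.247 FPKM in KO and WT. BPI was near calprotectin with RA alone and not with MC_2580 or in KO. With the combination its log2 difference from DMSO was 6.76, beside 7.77 for S100A8 and 8.01 for S100A9. S100A12 had closer neighbours, led by SLC15A3, a lysosomal peptide and histidine transporter, at a distance of 0.28: 0.432 FPKM in DMSO, 1.47 FPKM with MC_2580, 0.297 and 0.498 FPKM with RA and 16.1 FPKM with the combination. HMOX1, the inducible haem oxygenase, and CTSB, the lysosomal protease cathepsin B, followed at 0.48 each. For S100P the nearest was SUSD3 (0.24), at 22.0, 16.9, 83.7, 68.2 and 61.8 FPKM over the treatments in the order given above. For the other 4 members, whose differences were small, the nearest genes lay within 0.13.

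Receptors that S100 proteins act on fell into a pair of high genes and a low rest. BSG (basigin), a receptor for S100A9, was at 199 to 332 FPKM in all 9 libraries, and the adhesion molecule ALCAM at 15.5 to 34 FPKM in the 7 libraries where it has a value, while the others reached at most 8.92 FPKM. Of the list of 10, 7 reached 1 FPKM in the comparison of the combination with DMSO, and 4 were higher and 1 lower (9.05% and 4.64% of all loci). All 4 higher genes (LY96, CD14, FPR1 and FPR2) passed that minimum through the combination library alone, and of the 3 at 1 FPKM or more in DMSO 0 were higher (6.10% of such loci). LY96, the partner of Toll-like receptor 4, was at 0.252 FPKM in DMSO, 4.06 FPKM with MC_2580, 0.115 and 0 FPKM with RA at 0.01 and 1 uM and 7.42 FPKM with the combination. Of these libraries only those given MC_2580 were above 1 FPKM, and in the knockout set LY96 was at 6.31 and 2.03 FPKM in KO and 0.248 and 0.050 FPKM in WT (log2 difference 2.04, SE 0.52, limma adjusted p = 0.521, unadjusted p = 0.0185). TLR4 itself was at 2.81 FPKM in DMSO, 8.92 FPKM with RA at 1 uM and 6.48 FPKM with the combination. CD14, its co-receptor, reached 3.03 FPKM and the formyl peptide receptors FPR1 and FPR2 3.67 and 6.53 FPKM in the combination, from 0.109, 0.0307 and 0.106 FPKM in DMSO. MCAM, a receptor for S100A8 and S100A9, was lower, at 5.43 FPKM in DMSO and 1.17 FPKM in the combination. RAGE (AGER) matched more than 1 locus and has no value here.

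Few binding partners inside the cell differed 2-fold. Of 15 listed, 12 reached 1 FPKM, and against DMSO 1 was higher with MC_2580 (ANXA2; 2.22% of all loci), 1 lower at each RA dose (ANXA2; 3.99% and 4.09%) and 1 higher with the combination (MYH9; 9.05%). At 1 of 12, the last is near the share of all loci. ANXA2, the annexin that S100A10 and other members bind, was at 31.9 FPKM in DMSO, 76.6 FPKM with MC_2580, 9.15 and 8.84 FPKM with RA and 33.3 FPKM with the combination. It was lower with RA and higher with MC_2580, and the combination was close to DMSO. In KO it was at 223 and 293 FPKM and in WT at 98.1 and 121 FPKM (log2 difference 1.22, SE 0.25, limma adjusted p = 0.391, unadjusted p = 0.00882). MYH9, the non-muscle myosin heavy chain that S100A4 binds, went from 117 FPKM in DMSO to 244 FPKM in the combination. No partner was called in the knockout set by limma. At an unadjusted p under 0.05, passed by 7.16% of all loci in either direction, 3 of 12 were higher (ANXA2, ANXA5 and ANXA6) and 0 lower.

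The phagocyte NADPH oxidase, to which calprotectin delivers arachidonic acid, was higher with RA. Of the 5 subunits at 1 FPKM or more in DMSO (CYBA, CYBB, NCF1, NCF4 and RAC2), 4 were higher with RA at 0.01 uM (3.43% of the loci at that level), 4 with RA at 1 uM (4.28%), 5 with the combination (6.10%) and 0 with MC_2580 (0.951%). CYBB, the catalytic subunit, was at 10.7 FPKM in DMSO, 19.2 FPKM with MC_2580, 112 and 201 FPKM with RA and 330 FPKM with the combination, the order of libraries seen for S100A8. NCF1, a cytosolic subunit, went from 2.72 FPKM in DMSO to 2245 FPKM in the combination, a value that is uncertain because NCF1 has near-identical pseudogene copies. In the knockout set CYBB was at 18.8 and 22.4 FPKM in KO and 17.7 and 24.7 FPKM in WT, overlapping where S100A8 and S100A9 did not. The limma fit over all loci called 0 of these 5 subunits, and at an unadjusted p under 0.05, passed by 7.16% of loci, RAC2 was higher and NCF4 lower in KO (log2 differences 0.73 and -1.59).

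Markers of other blood cells were read beside the calprotectin values. The summed level of 9 neutrophil maturation genes was 53.7, 88.5, 50.3, 73.1 and 223 FPKM over the treatments in the order DMSO, MC_2580, RA at 0.01 uM, RA at 1 uM and combination, with 3 genes at 1 FPKM or more in each of the first 4 and 4 in the last. ITGAM, the integrin chain CD11b, was at 2.68, 13.9, 22.9, 42.5 and 136 FPKM, while the secondary granule gene LCN2 was at 0 in all 5 and LTF at most 0.0268 FPKM. CSF3R, at 21.8 FPKM in DMSO and 20.3 FPKM with MC_2580, has no value in the libraries given RA. Their neutrophil sums and counts leave it out, so they are not like those of DMSO and MC_2580. The summed level of the 7 monocyte genes found, of 8 listed, was 2.75, 14.9, 14.6, 14.1 and 30.7 FPKM, with CD163 at 0 or nearly so throughout and CSF1R missing from the DMSO sum. In the knockout set the neutrophil sum was 101 and 43.6 FPKM in KO against 149 and 54.3 FPKM in WT, and the monocyte sum 7.65 and 7.33 against 6.61 and 4.78 FPKM. The summed level of 4 eosinophil genes, most of it PRG2, went the other way from calprotectin. It was 1318, 1103, 488, 485 and 389 FPKM over the treatments, and 179 and 221 FPKM in KO against 1528 and 1734 FPKM in WT. PRG2 and EPX were lower with RA and in KO, but the other genes did not follow throughout. CLC was higher with RA, at 4.4 and 4.51 FPKM with the lower and higher dose against 0.0839 FPKM in DMSO. IL5RA was higher in KO, at 2.85 and 1.6 FPKM against 0.061 and 0.0517 FPKM in WT. The 7 lymphocyte genes summed to 76.6, 72.6, 111, 112 and 131 FPKM over the treatments, and to 238 and 198 FPKM in KO against 118 and 71.9 FPKM in WT, with the B cell gene MS4A1 at 0 in all 9 libraries. CD3D and CD79A made up most of the treatment sums. In the knockout set CD3D was at 213 and 173 FPKM in KO against 115 and 69 FPKM in WT, CD3G at 12.9 and 13.6 against 1.28 and 1.05 FPKM, CD79A at 7.87 and 8.77 against 1.79 and 1.43 FPKM, and CD2 at 3.45 and 3.06 against 0.0724 and 0.0602 FPKM. All 4 were higher in both KO libraries than in either WT library. The 2 epithelial genes found, of 4 listed, summed to at most 12.9 FPKM, nearly all of it EPCAM. The part of these markers in the S100 values was not tested.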

How the data were processed

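Expression was measured by RNA-seq (TruSeq V2 libraries, per the labels) in 9 NB4 libraries. Per the submitters' processing notes, CASAVA 1.8, TopHat 1.3.1, TopHat2 2.0.10, Cufflinks and Cuffdiff were used with build hg18; which version served which table is not given in the sources used here. The authors deposited 2 tables of FPKM per locus, with Cuffdiff p-values and q-values. The q-values and significance calls quoted are the authors' own. An offset of 0.001 FPKM was taken off the knockout table, and 1 locus with too many fragments was left out. A failed test leaves no value in the treatment table. Read counts were not used here, so no count test was run and the depth is unknown beyond the ratios in the report. The KO comparison used limma 3.58.1 (trend, R 4.3.3) on log2(FPKM + 1), for loci whose mean reached 1 FPKM in KO or WT, with Benjamini-Hochberg adjustment at 0.05 over all loci, with no replicate block. Treatments have 1 library each and were compared by 2-fold differences of FPKM + 1, which understate the change of low genes. Protein-coding genes with a single locus were identified through RefSeq names (17314 in the knockout table, 17333 in the treatment table). On simulated data the fit over all loci recovered 18 of 50 genes changed 4-fold and 29 of 50 changed 16-fold in the knockout comparison (12781 loci), and 27 and 41 of 50 among 9795 protein-coding genes. Alternatives were the pseudocount, the filter, quantile normalization, the gene scope, a replicate block, each library left out, a 4-fold limit, the authors' calls and a linear sum. The named genes are the 8 members, KDM1A, lists of other S100 genes, receptors, partners, oxidase subunits and markers, and the 3 nearest profiles of each member. Members and lists were chosen with earlier results of these data known. Table positions start at 0 and were raised by 1.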

Additional observations from a re-analysis of the deposited data

Results flagged for a closer look

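The response of S100A11 to RA at 0.01 uM went in opposite directions without and with MC_2580. Without it the log2 difference on the FPKM + 1 scale was -0.43 (162 against 218 FPKM), and with it 0.12 (348 against 320 FPKM). Each of the 4 conditions is 1 library, both differences are within 2-fold, and the difference between them was not tested. Between like libraries of the knockout set S100A11 differed by -0.33 (WT) and -0.32 (KO) on the same scale.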

How the results depend on the processing

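Over all loci limma called 15 in the KO comparison, against 38 with a pseudocount of 0.1 FPKM, 59 among protein-coding genes with a single locus, 0 with no filter on low values (1720 at an unadjusted p under 0.05), 0 with the replicate number as a block (3198 at an unadjusted p under 0.05) and 0 without each library in turn (654 to 801 at an unadjusted p under 0.05). Among protein-coding genes it called 127 and 166 without KO library 1 and 2 and 305 and 260 without WT library 1 and 2, where the remaining library of a genotype is assumed to vary like the other group, and 2949 with the replicate block, settings added after the data were seen. Of the members 0 were called over all loci, 1 with a pseudocount of 0.1 FPKM (S100A9), 2 among protein-coding genes, 2 to 3 there without each library (S100A12 as well without KO library 1) and 5 there with the replicate block (S100A4, S100A6, S100A8, S100A9 and S100A13). The labels do not say that the replicate numbers pair the samples; deviations of same-numbered libraries correlated at 0.86 over 9783 genes, with only 2 pairs. Without each library in turn the log2 difference of S100A11 ran from -0.04 (without KO library 2 and without WT library 1) to 0.29. That of S100P ran from -0.65 to 0.25 (without KO library 2, with 0.18 without WT library 1). Both ranges held for all loci and for protein-coding genes alike. The directions in these unpaired fits thus depended on which library was left out. Between same-numbered libraries S100A11 was higher in KO both times (0.12 and 0.12) and S100P lower both times (-0.13 and -0.27). At a 4-fold limit 1 member was higher with MC_2580, 2 with RA at 1 uM and 3 with the combination against DMSO. The combination had 1 higher against RA at 0.01 uM and 1 against RA at 1 uM. S100A8 and S100A12, where counted, passed the 1 FPKM minimum through the treated library alone. The share of all loci past 4-fold was not taken, so these counts are a description. With the 1 FPKM minimum asked of DMSO alone, also added after the data were seen, 1 was higher with MC_2580 (0.951% of such loci) and 2 with the combination (6.10%). The authors' deposited calls gave 1 with MC_2580 and 2 with the combination against RA at 0.01 uM, with no share of all loci taken beside them. Against the linear sum of both agents, the log2 ratio of the S100A9 level on the FPKM + 1 scale was 1.20. The causes were not tested. Without the replicate block, the fit over all loci recovered 0 of 50 changes of 2-fold on simulated data. The simulated libraries varied independently of each other, whereas deviations of same-numbered real libraries correlated (0.86, above).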

Other observations

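Of the 14 other S100 family genes searched, S100A10, S100B, S100A1, S100A5 and S100PBP (an S100P-binding protein, not an S100 protein) reached 1 FPKM in a library, and S100A7, S100A7A, S100A7L2 and S100G were at 0 in all 9. S100A10, which pairs with ANXA2 and does not need calcium to do so, was at 134 FPKM in DMSO, 155 FPKM with MC_2580, 73.8 and 83.6 FPKM with RA at 0.01 and 1 uM and 123 FPKM with the combination. The libraries given RA alone were the lowest, as for ANXA2. In the knockout set S100A10 was at 167 and 124 FPKM in KO and 145 and 95.9 FPKM in WT, which overlap.

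S100B, best known from astrocytes, differed in the direction opposite to calprotectin in the knockout set. It was at 3.89 and 5.31 FPKM in KO and 13.3 and 12.2 FPKM in WT, with no overlap (log2 difference -1.31, SE 0.20, limma adjusted p = 0.24 over all loci, unadjusted p = 0.00323). With RA it was on the same side as calprotectin, at 13.1 and 15.6 FPKM with RA at 0.01 and 1 uM and 12.8 FPKM with the combination, against 6.09 FPKM in DMSO and 5.24 FPKM with MC_2580. S100A1 stood at 6.92 FPKM in WT library 1 and between 0.895 and 2.33 FPKM in the other 8 libraries. Its span is shared with S100A13, which was at 8.78 FPKM in that library and 9.94 FPKM in WT library 2.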
